A study of Homo sapiens with 16 samples.

Results

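The comparison described here asks where the response to an siRNA against HNRNPH1 differed between HEK-293T and HT-1080 cells. It used 12 of the 16 samples of the series, which are all of its short-read RNA-seq libraries. The 4 full-length cDNA pools entered no comparison. Per the labels, cells of each line were transfected by Lipofectamine RNAiMAX with siRNA at 20 nM, and RNA was isolated 48 h later from biological replicates. The 4 groups, with 3 libraries each, were HEK-293T with a control siRNA (siNegative), HEK-293T with the HNRNPH1 siRNA (siHNRNPH1), HT-1080 with siNegative and HT-1080 with siHNRNPH1. HEK-293T derives from human embryonic kidney and makes the large T antigen of SV40, which binds p53 and the retinoblastoma protein. HT-1080 are human fibrosarcoma cells with an activated NRAS allele. Whether siHNRNPH1 is 1 sequence or a pool is not given in the sources used here, and transfection without siRNA was not among the groups. The measure throughout is the interaction, which is the log2 fold change of siHNRNPH1 over siNegative in HT-1080 minus the same log2 fold change in HEK-293T. A positive interaction therefore means a higher response in HT-1080.

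HNRNPH1 encodes hnRNP H1, a nuclear protein that binds runs of G in pre-mRNA and turns exons on or off depending on where it binds. Its close relatives hnRNP F and hnRNP H2 bind much the same sequences. Loss of such a factor can change which transcripts a gene makes, and through those transcripts the amount of RNA of many other genes.

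Depth was 107745652 to 121026191 expected counts per HEK-293T library and 27304374 to 32653151 per HT-1080 library. The siHNRNPH1 replicate 1 library of HEK-293T stood apart. Its Pearson r with the other siHNRNPH1 libraries of its line was 0.941 and 0.934 over 14880 genes, where every other pair of libraries of 1 group reached 0.996 or more. Results are therefore given with all 12 libraries and again without that library. HT-1080 siNegative replicate 2 differed from the other controls of its line too, by a chi-square per degree of freedom over genes of 16.2 and 15.8, where these differed by 1.74 from each other. Without it, 2882 genes had a called interaction, against 2958 and 2883 without either of the other HT-1080 controls. Summed over 10 marker genes, the HT-1080 markers came to 20.0 to 39.0 CPM (a gene's count scaled to a common library total) in HEK-293T and to 5439.2 to 7989.0 CPM in HT-1080, and the HEK-293T markers to 937.3 to 1732.4 CPM and 163.3 to 206.0 CPM. The HT-1080 marker sum was lower with siHNRNPH1 in HT-1080 (5439.2 to 5492.6 CPM, against 7900.5 to 7989.0 CPM). The HEK-293T marker sum was higher with siHNRNPH1 in HEK-293T (1268.1 to 1732.4 CPM, against 937.3 to 992.9 CPM). These sums follow a few genes: CD44 averaged 3037.1 and then 1873.3 CPM in HT-1080, and PLAU 2843.1 and then 1740.6 CPM. Of 9 HT-1080 markers tested, 3 fell and 0 rose in HT-1080, and of 9 HEK-293T markers tested, 2 rose and 0 fell in HEK-293T. The markers SOX11 and CRABP1 stayed below 1 CPM in HEK-293T, and S100A4 and THY1 below 1 CPM in HT-1080. Nothing in the labels ties the libraries of different groups to 1 culture, so p-values measure the spread between these libraries. In bulk RNA, fewer cells of a kind and less RNA per cell cannot be told apart.

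The targeted RNA fell in both lines. HNRNPH1 was at 1107.2, 1104.6 and 1120.9 CPM in the HEK-293T siNegative libraries and at 234.1, 376.2 and 394.3 CPM in the siHNRNPH1 libraries. In HT-1080 it was at 634.6, 605.8 and 617.2 CPM with siNegative and at 231.5, 231.0 and 228.5 CPM with siHNRNPH1. Control and siHNRNPH1 libraries did not overlap in either line, and the lowest of the HEK-293T siHNRNPH1 values was that of replicate 1. In HEK-293T the log2 fold change was -1.71 (SE 0.14). It was -1.51 (SE 0.14) in the HT-1080 line. The interaction of 0.20 (SE 0.19) was not called (edgeR BH-adjusted p = 0.506), and without HEK-293T siHNRNPH1 replicate 1 it was 0.04 (SE 0.06, edgeR BH-adjusted p = 0.597).

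Many genes answered the siRNA differently in the lines although HNRNPH1 itself fell by a similar amount. Of 21276 genes tested, 4036 (19.0%) had an interaction below an adjusted p of 0.05 in edgeR's quasi-likelihood test. It was more negative in HT-1080 for 2307 genes (10.8%) and more positive for 1729 (8.13%). The difference was at least 1 on the log2 scale for 2259 of these genes and at least 2 for 659. With 12 libraries, 2166 of the calls (53.7%) came from genes whose siRNA effect was called in HT-1080 alone, 918 of them up and 1248 down. Another 821 were called in HEK-293T alone, 488 up and 333 down. In 324 genes both lines moved the same way by different amounts, with the larger change in HT-1080 for 242. In 464 genes (2.18%) both lines were called in opposite directions. For the remaining 261 genes neither line passed its own test.

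Leaving out HEK-293T siHNRNPH1 replicate 1 changed how many genes were called more than which. The interaction was then called for 9535 of 19447 genes (49.0%), and 3965 of the 4036 were among them. Opposite directions were called for 2277 genes (11.7%), including 458 of the 464. The siRNA effect was then called in HT-1080 alone for 3046 of the 9535 (31.9%), fewer than the 2277 opposite and 2340 same-direction genes together, and in HEK-293T alone for 1731. When any HEK-293T siNegative or HT-1080 library was left out instead, 258 to 297 genes were called opposite. Over all genes tested the median interaction was -0.07 with 12 libraries and -0.02 without the library, which is the background for each list median given here. The first of these moved to 0.04 when libraries were scaled by their totals. The share of calls that were more positive was 42.8% with the default scaling and 52.6% with library totals, so the balance between both directions depends on the scaling. As background for counts of list members, 10.8% of all genes tested were more negative and 8.13% more positive with 12 libraries. Without HEK-293T siHNRNPH1 replicate 1 these shares were 26.4% and 22.7%. By each line's own test with 12 libraries, 14.8% rose and 14.5% fell in HT-1080, and 12.8% rose and 8.56% fell in HEK-293T.

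**Figure D1:**
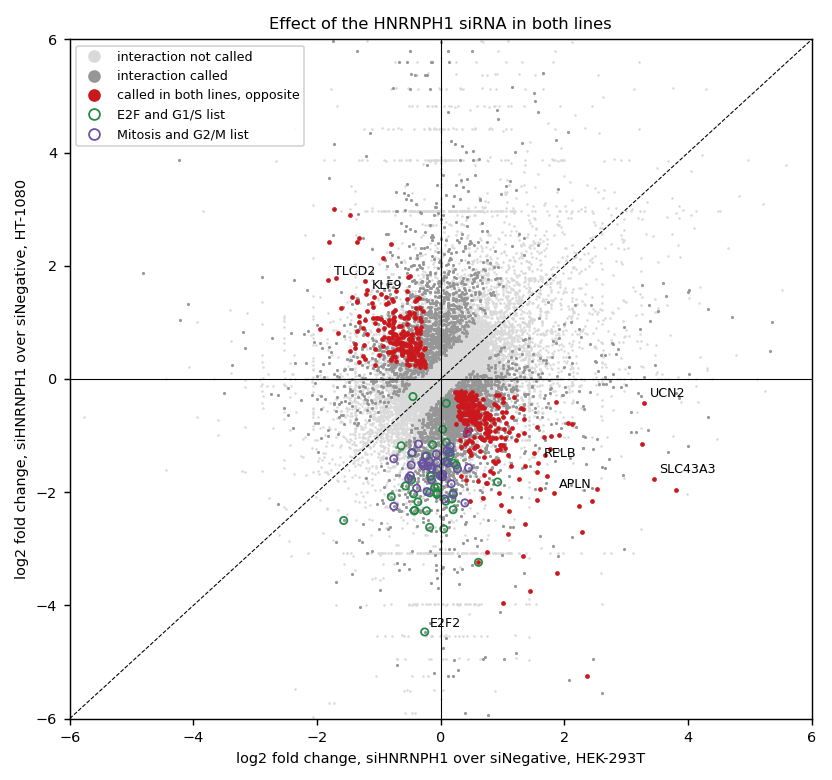
Log2 fold change of siHNRNPH1 over siNegative in HEK-293T (horizontal axis) and HT-1080 (vertical axis), 1 point per gene, with 3 libraries per group. Red points are the 464 genes called in opposite directions, and the rings of the E2F and mitosis lists lie near 0 in HEK-293T and below 0 in HT-1080. The dashed line marks equal change, and 69 genes lie outside the axes.

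DNA replication genes fell in HT-1080 and moved little in HEK-293T. E2F factors drive the genes of the G1/S step, in which cells license origins, make nucleotides and copy their DNA. Of 40 such genes tested, 36 had a more negative interaction (10.8% of all genes tested), and 38 fell in HT-1080 (14.5%) while 8 fell in HEK-293T (8.56%). With HEK-293T siHNRNPH1 replicate 1 left out, 24 fell in HEK-293T (24.6% of all genes), with a median log2 fold change of -0.21. The median interaction of the list was -1.70, with medians of -1.90 in HT-1080 and -0.11 in HEK-293T. In every HT-1080 siHNRNPH1 library the list stood well below its control, by a median on the log2(CPM + 1) scale of -1.72, -1.69 and -1.78, where the HEK-293T libraries gave -0.12, -0.14 and -0.19. All 40 were called with HEK-293T siHNRNPH1 replicate 1 left out (26.4%), with a median of -1.55, and when any of the other 11 libraries was left out 35 or 36 were called.

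Within the list, the 6 genes below carry E2F-type letters in the promoter window searched and span its range of functions, from transcription factors to origin licensing. Sequences are from RefSeq promoters (GRCh38.p14), 5′ to 3′ on the gene's strand, with the motif and 8 flanking bases, and capitals mark the first match of the window. In the MCM6 stretch a second match, the reverse complement of TTTCGCGC, overlaps the capitals and is left in lower case where it runs past them.
E2F2: gcacgacgTTTGGCGCtaaaaaaa
ZNF367: ccgcccagGCGCGAAAtgtaacgc
UHRF1: gagttttcGCGGGAAAaaaatcag
CDC6: cattcggaTTTGGCGCgagcgcgg
MCM6: gctttgcaTTTGGCGCgaaatccc
E2F1: gctctttcGCGGCAAAaaggattt
These lie at chr1:23531260-23531283 (minus strand), chr9:96418390-96418413 (minus), chr19:4909479-4909502 (plus), chr17:40287878-40287901 (plus), chr2:135876580-135876603 (minus) and chr20:33686403-33686426 (minus). The match of MCM6 begins at -152 bases from the start, and those of the other genes shown at -42 to 7. The motif searched was any of TTTCCCGC, TTTGGCGC, TTTCGCGC and TTTGCCGC on either strand, between 250 bases before and 50 after the start. It was present in 21 of the 34 list genes with a promoter in the table (61.8%), against 664 of 13257 tested genes (5.0%). Among genes with a more negative interaction 7.8% held it, and among those with a more positive one 3.8%. Such a match describes the letters of the window only.

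E2F2, an activator of the G1/S program, was at 57.8, 57.3 and 56.9 CPM in HEK-293T with siNegative and at 43.5, 49.7 and 47.2 CPM with siHNRNPH1. In HT-1080 it went from 7.65, 7.07 and 7.6 CPM to 0.308, 0.398 and 0.351 CPM. E2F2 thus fell in both lines without overlap between the groups, by 0.26 on the log2 scale in HEK-293T and by 4.47 in HT-1080 (interaction -4.21, SE 0.14, edgeR BH-adjusted p = 2.67e-07). UHRF1, which recruits the maintenance DNA methyltransferase to replicated DNA, was at 141.6, 141.8 and 131.7 CPM with siNegative and at 146.7, 164.9 and 152.5 CPM with siHNRNPH1 in HEK-293T. The same gene dropped from 122.6, 111.1 and 115.1 CPM to 29.7, 31.9 and 29.3 CPM in HT-1080 (interaction -2.21, edgeR BH-adjusted p = 4.05e-06). For UHRF1 the HT-1080 change passed the test with 12 libraries and the HEK-293T change did not. CDC6, which loads the replicative helicase onto origins, was at 168.8, 168.8 and 167.0 CPM before and at 114.4, 125.2 and 127.9 CPM after siHNRNPH1 in HEK-293T, where it fell by 0.42 on the log2 scale. In HT-1080 it went from 49.7, 49.4 and 52.4 CPM to 11, 10.8 and 10.1 CPM, and the interaction was -1.90 (edgeR BH-adjusted p = 4.23e-06). Both lines therefore lost CDC6 RNA, HT-1080 the more.

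Of the 40 genes, 1 was called in opposite directions with 12 libraries (2.18% of all genes). Without HEK-293T siHNRNPH1 replicate 1 there were 4 (11.7% of all genes), ZNF367, CDT1, UHRF1 and RBL1. ZNF367, a zinc finger protein, was the gene called with 12 libraries. It was at 19.6, 19.7 and 19.4 CPM with siNegative and at 21.7, 32.8 and 33.7 CPM with siHNRNPH1 in HEK-293T. In HT-1080 it went from 32.6, 29.2 and 31.9 CPM to 3.22, 3.37 and 3.86 CPM. The groups did not overlap in either line, and the log2 fold changes were 0.61 and -3.24 (interaction -3.85, edgeR BH-adjusted p = 3.70e-06). The other HEK-293T calls of the list were all falls, among them those of E2F2, CCND1, CDC6, CDC25A, RRM2, CDC45 and GINS1. CCND1, the cyclin that starts G1 progression, had the largest of these falls, 1.57 on the log2 scale. E2F7, E2F8 and CCNE1 were among the genes with no called interaction with 12 libraries. In E2F7, a repressor of the same program, neither line's change passed the test (log2 fold changes -0.45 and -0.31).

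Genes of mitosis split the lines in the same way. These genes condense and segregate chromosomes, and many are held down in resting cells through a short promoter element, the cell cycle homology region. All 35 fell in HT-1080 (14.5% of all genes) and 6 fell in HEK-293T (8.56%), and 32 had a more negative interaction (10.8%). The list medians were -1.54 in HT-1080, -0.07 in HEK-293T and -1.43 for the interaction. With HEK-293T siHNRNPH1 replicate 1 left out all 35 interactions were called more negative (26.4% of all genes), with a median of -1.46. In HEK-293T 17 then fell (24.6% of all genes) while 6 rose (30.6%). CENPE, CENPF and ECT2 were the members not called with 12 libraries. The 5 promoters of the list printed here carry the element's letters, TTTGAA, and were picked because their genes cover entry into mitosis, kinetochore and spindle (RefSeq, GRCh38.p14, 5′ to 3′ on the gene's strand, motif in capitals).
CDK1: ataataaaTTTGAActgtgcca
NUF2: gcggcaagTTTGAAaagtgatg
NUSAP1: gccagggaTTTGAAccgcgctg
PLK1: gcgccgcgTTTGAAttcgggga
CCNB2: acgcggtaTTTGAAtcctggaa
They lie on the plus strand at chr10:60778162-60778183, chr1:163321962-163321983, chr15:41332886-41332907, chr16:23678852-23678873 and chr15:59105109-59105130. TTTGAA was found on either strand in 19 of the 29 mitosis promoters in the table (65.5%), in 2 of 34 E2F list promoters (5.9%) and in 10.2% of the 13257. CCAAT, the letters bound by NF-Y, was in 79.3% of the mitosis promoters and 36.6% of all. It was not particular to mitosis genes, with 64.7% in the E2F list and 68.0% in cholesterol and fatty acid synthesis. Homologous recombination genes gave 44.4% and NF-kB genes 30.0%.

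CDK1, the kinase that drives entry into mitosis, was at 148.5, 143.2 and 144.4 CPM with siNegative and at 139.0, 142.6 and 154.2 CPM with siHNRNPH1 in HEK-293T. In HT-1080 it went from 109.9, 112.5 and 105.9 CPM to 35.6, 36.9 and 35.6 CPM. The HEK-293T groups overlapped and the HT-1080 groups did not (log2 fold changes 0.03 and -1.68, interaction -1.71, edgeR BH-adjusted p = 6.11e-06). NUF2, a subunit of the kinetochore's NDC80 complex, was at 60.2, 57.3 and 58.1 CPM and then 48.5, 47.7 and 51 CPM in HEK-293T, and at 43.3, 45 and 43.1 CPM and then 11.3, 11.9 and 11.8 CPM in HT-1080. Its HEK-293T change of -0.22 missed the threshold with 12 libraries and the interaction of -1.77 did not (edgeR BH-adjusted p = 6.56e-06). PLK1, a mitotic kinase, averaged 159.7 and 158.2 CPM in HEK-293T and went from 181.3 to 57.8 CPM in HT-1080 (interaction -1.76, edgeR BH-adjusted p = 1.47e-04). AURKA, the spindle pole kinase, had an interaction of -1.33, and NUSAP1, which bundles spindle microtubules, one of -1.43.

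Homologous recombination and Fanconi genes, which mend double-strand breaks and crosslinks during S phase, went the same way in HT-1080. Of 33 tested, 28 fell there (14.5% of all genes, list median -1.49), while 4 rose (12.8%) and 3 fell (8.56%) in HEK-293T. Without HEK-293T siHNRNPH1 replicate 1, 10 rose (30.6% of all genes) and 6 fell (24.6%) in HEK-293T. With 12 libraries the interaction was more negative for 23 (10.8%), with a median of -1.34. It was so for 31 (26.4%) without HEK-293T siHNRNPH1 replicate 1 (median -1.40). On the log2(CPM + 1) scale that library gave a list median of -0.53, while the other HEK-293T siHNRNPH1 libraries gave 0.01 and 0.09. FANCA, a scaffold of the Fanconi core complex, was at 123.7, 117.6 and 122.0 CPM and then 121.8, 131.9 and 128.4 CPM in HEK-293T, and fell from 59.1, 55.9 and 60.8 CPM to 20.1, 19.8 and 19.3 CPM in HT-1080 (interaction -1.76, edgeR BH-adjusted p = 5.52e-06). BLM, a helicase that resolves recombination intermediates, and EXO1, which resects DNA ends, had interactions of -1.89 and -1.83. In 3 genes, FANCD2 and EME1 among them, both lines were called in opposite directions (2.18% of all genes). Without HEK-293T siHNRNPH1 replicate 1 this held for 8 (11.7%). FANCD2, the protein that the core complex ubiquitinates, rose from 167.8 to 223.1 CPM in HEK-293T and fell from 28.0 to 19.2 CPM in HT-1080. EME1, a structure-specific nuclease subunit, went from 27.7 to 33.6 CPM and from 10.0 to 5.05 CPM. The E2F letters were in 5 of 27 promoters of the list (18.5%).

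**Figure D2:**
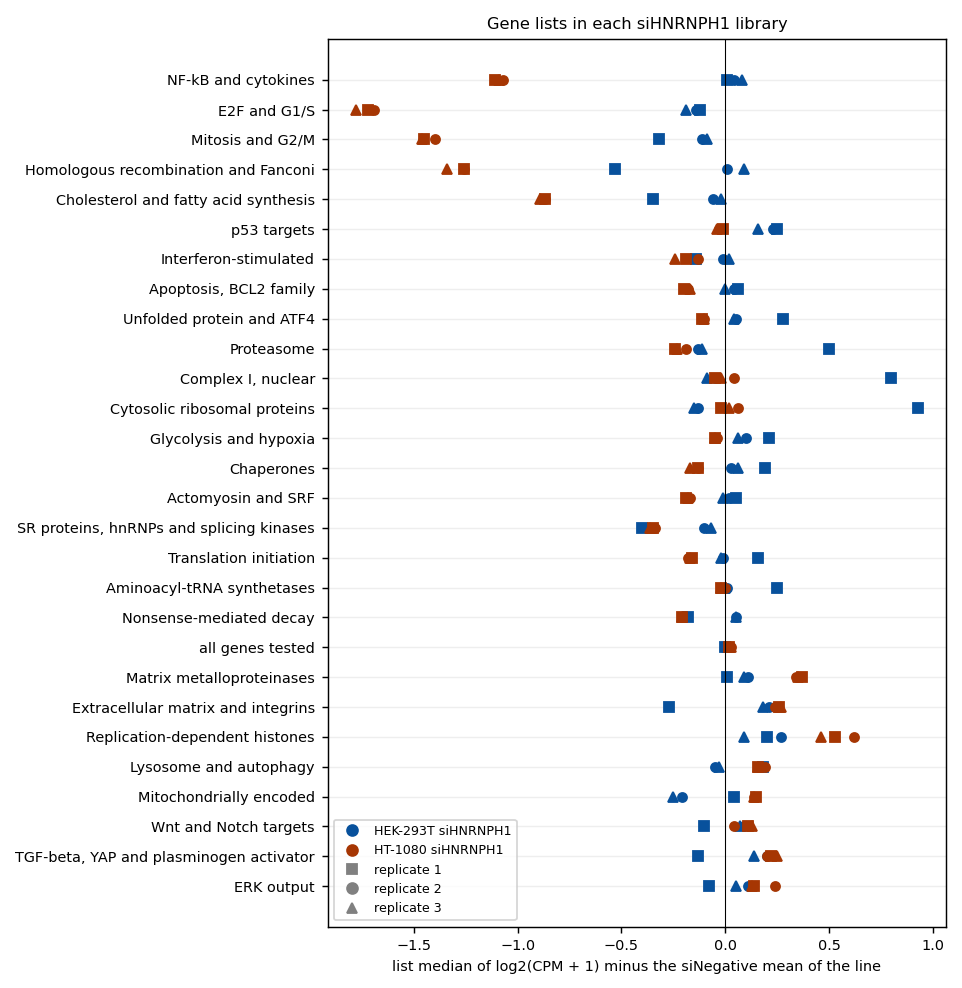
Median over each gene list of log2(CPM + 1) minus the mean of the line's siNegative libraries, 1 marker per siHNRNPH1 library. The HT-1080 libraries lie together for the E2F list (-1.78 to -1.69) and the NF-kB list (-1.11 to -1.07), while HEK-293T replicate 1 lies apart for ribosomal proteins (0.93, against -0.13 and -0.15).

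Most NF-kB genes fell in HT-1080, and some rose in HEK-293T. NF-kB is a family of inflammatory transcription factors whose targets include their own inhibitors and many cytokines. Of 24 genes tested, 17 fell (14.5% of all genes) and 2 rose (14.8%) in HT-1080, and 5 rose in HEK-293T (12.8%). The interaction was more negative for 14 (10.8%) and more positive for 1 (8.13%), PTGS2. Its list median was -2.51 (-2.26 without HEK-293T siHNRNPH1 replicate 1). Many of these genes were near the limit of detection in HEK-293T, which bounds how well their HEK-293T change is known.

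BIRC3, an inhibitor of apoptosis, was at 42.5, 36.3 and 43.6 CPM in HT-1080 with siNegative and at 0.411, 0.337 and 0.492 CPM with siHNRNPH1. In HEK-293T it was at 1.98, 1.53 and 1.91 CPM and then 0.835, 1.71 and 1.99 CPM. The HT-1080 groups were far apart and the HEK-293T groups overlapped (interaction -6.46, SE 0.38, edgeR BH-adjusted p = 5.03e-06). TRAF1, an adaptor of TNF receptors, went from 60.4, 54.5 and 57.2 CPM to 1.71, 1.81 and 2.32 CPM in HT-1080 and was at 4.57, 3.73 and 3.95 CPM and then 5.46, 4.10 and 4.12 CPM in HEK-293T (interaction -5.17, edgeR BH-adjusted p = 3.70e-06). NFKBIA, the inhibitor that holds NF-kB in the cytoplasm, went from 69.5, 72.8 and 72.0 CPM to 17.1, 15.8 and 15.4 CPM in HT-1080 and was at 13.3, 14.2 and 14.7 CPM and then 17.8, 16.3 and 15 CPM in HEK-293T. Its HEK-293T change did not pass the test, and the interaction was -2.49. ICAM1, an adhesion receptor, had an interaction of -5.64. NFKB2, a subunit precursor, fell from 226.1 to 38.8 CPM in HT-1080 beside 16.0 and 16.8 CPM in HEK-293T.

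In the NF-kB list, 4 genes were called in opposite directions (2.18% of all genes), and 7 without HEK-293T siHNRNPH1 replicate 1 (11.7%). RELB, the partner of NFKB2, rose from 0.666, 0.887 and 0.644 CPM to 3.29, 1.62 and 1.38 CPM in HEK-293T and fell from 29.6, 32.8 and 31.7 CPM to 11.1, 12.2 and 12.4 CPM in HT-1080. Without HEK-293T siHNRNPH1 replicate 1, which held the highest of the HEK-293T values, its log2 fold change in HEK-293T was 1.02 in place of 1.58. TNFAIP2 averaged 0.711 and then 1.19 CPM in HEK-293T and 24.5 and then 16.7 CPM in HT-1080. LIF, a cytokine of the interleukin 6 family, averaged 1.44 and 2.06 CPM against 245.5 and 203.2 CPM. The chemokine gene CCL2 averaged 0.00275 and 0.0613 CPM in HEK-293T, too low for a fold, and went from 21.3 to 5.76 CPM in HT-1080. PTGS2, the inducible cyclooxygenase, went against the list: it rose in HT-1080 from 4.67 to 40.7 CPM and averaged 1.01 and 1.14 CPM in HEK-293T (interaction 2.84, edgeR BH-adjusted p = 3.49e-05).

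Interferon-stimulated genes had called interactions of both signs. Of 30 tested, 5 had a more negative interaction (IRF1, IFIH1, OAS3, IFIT3 and OASL) and 3 a more positive one (IRF9, HERC6 and BST2), with a median of -0.55. Over all genes tested the shares were 10.8% and 8.13%. These counts were 10 and 7 when HEK-293T siHNRNPH1 replicate 1 was left out, against 26.4% and 22.7% of all genes. IRF1, a transcription factor induced by interferon, was at 53.8, 55.1 and 56.5 CPM and then 21.5, 23.1 and 21.8 CPM in HT-1080, and at 5.42, 5.63 and 5.68 CPM and then 5.29, 5.37 and 5.00 CPM in HEK-293T (interaction -1.34, edgeR BH-adjusted p = 5.46e-05). IRF9, which joins the STAT dimer on interferon response elements, rose in HT-1080 from 19.9, 20.6 and 20.5 CPM to 37.4, 36.6 and 36.6 CPM and was at 12, 11.9 and 11.2 CPM and then 8.57, 10.8 and 10.6 CPM in HEK-293T (interaction 0.98). IRF1 and IRF9, both regulators, therefore had interactions of opposite sign.

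Among 25 targets of p53, 9 rose in HEK-293T (median 0.38, and 16 without HEK-293T siHNRNPH1 replicate 1) and 2 rose and 3 fell in HT-1080 (median -0.10). The interaction was more negative for 6 (CDKN1A, PHLDA3, TNFRSF10B, AEN, FAS and POLH) and more positive for XPC. Over all genes, 10.8% were more negative and 8.13% more positive, 12.8% rose in HEK-293T, and 14.8% rose and 14.5% fell in HT-1080. CDKN1A, the cyclin-dependent kinase inhibitor p21, was at 21.7, 21 and 21.3 CPM and then 57.5, 42.7 and 41.4 CPM in HEK-293T. In HT-1080 it was at 300.4, 305.2 and 301.9 CPM and then 258.1, 256.5 and 248.4 CPM. It rose in HEK-293T, where replicate 1 was highest, and its HT-1080 change of -0.33 did not pass the test with 12 libraries although the groups did not overlap (edgeR BH-adjusted p = 0.120). The interaction was -1.53 (edgeR BH-adjusted p = 6.14e-04). Without HEK-293T siHNRNPH1 replicate 1 the HT-1080 change passed (edgeR BH-adjusted p = 7.10e-07). Opposite directions were then called for 9 of the 25 genes, CDKN1A among them, against 11.7% of all genes. XPC, a damage sensor of nucleotide excision repair, rose in HT-1080 from 44.8, 42.3 and 47.2 CPM to 72.9, 73.3 and 74.8 CPM (interaction 0.88). The count of 6 became 15 without HEK-293T siHNRNPH1 replicate 1 (26.4% of all genes) and ranged from 3 to 11 when another library was left out. The 16 that rose in HEK-293T without replicate 1 stand beside 30.6% of all genes. In the BCL2 family, 4 of 16 genes were called (19.0% of all genes), BCL2L2 and HRK more positive and BID and BIK more negative. Without HEK-293T siHNRNPH1 replicate 1, 4 were more positive (22.7% of all genes) and 7 more negative (26.4%). BID, BIK and HRK each lost the call in 8 or 9 of the 12 leave-outs (edgeR BH-adjusted p up to 0.190), and HRK was at 0 CPM in all HT-1080 siNegative libraries and at most 0.0919 CPM with siHNRNPH1.

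Genes of cholesterol and fatty acid synthesis fell in HT-1080. Of 31 tested, 25 fell there (14.5% of all genes, list median -0.98). In HEK-293T 7 fell (8.56%) and 1 rose (12.8%), with a list median of -0.10. The interaction was more negative for 17 (10.8%) and more positive for 1 (8.13%), TM7SF2, with a median of -0.83. With HEK-293T siHNRNPH1 replicate 1 left out, 14 fell (24.6% of all genes) and 5 rose (30.6%) in HEK-293T. The interaction was then more negative for 25 (26.4%) and more positive for 4 (22.7%), with a median of -0.69. MSMO1, a demethylase of the sterol ring, was at 92.5, 87.5 and 94.0 CPM and then 77.6, 83.6 and 89.8 CPM in HEK-293T, and fell from 136.4, 133.7 and 126.9 CPM to 46.0, 43.0 and 42.7 CPM in HT-1080 (interaction -1.58, edgeR BH-adjusted p = 1.12e-05). SQLE, the squalene epoxidase, had an interaction of -1.44, and its HEK-293T values after siHNRNPH1 were 164.8, 226.7 and 234.1 CPM beside controls of 227.0, 230.1 and 227.6 CPM, so that replicate 1 alone was low. CYP51A1, a sterol demethylase, had an interaction of -1.17. FASN, the fatty acid synthase, was called in opposite directions, from 493.9 to 701.8 CPM in HEK-293T and from 590.1 to 483.6 CPM in HT-1080 (interaction -0.91). The SREBP letters TCACCCCAC or TCACGCCAC were in 1 of 25 promoters of the list and 0.6% of all.

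Genes of ERK output, transforming growth factor beta (TGF-beta), YAP and matrix had called interactions of both signs. Over all genes tested, 8.13% were more positive and 10.8% more negative, or 22.7% and 26.4% with HEK-293T siHNRNPH1 replicate 1 left out. Of 23 genes that report ERK activity, 4 were more positive (EGR1, DUSP6, ETV5 and ETV1) and 4 more negative (DUSP5, FOSL1, HBEGF and EPHA2), against 7 and 6 with that library left out. DUSP5, a nuclear ERK phosphatase, rose in HEK-293T from 3.88, 3.85 and 3.91 CPM to 5.70, 4.82 and 4.72 CPM and fell in HT-1080 from 85.0, 83.5 and 88.3 CPM to 53.3, 52.3 and 50.3 CPM. DUSP6, a cytoplasmic one, did the reverse, from 0.945, 0.869 and 1.06 CPM to 0.455, 0.472 and 0.557 CPM and from 0.513, 0.498 and 0.661 CPM to 1.10, 0.888 and 0.983 CPM. These phosphatases therefore had interactions of opposite sign, -1.23 (edgeR BH-adjusted p = 4.45e-04) and 1.66 (edgeR BH-adjusted p = 0.00139). EGR1, an immediate early factor, rose in HT-1080 from 2.78, 2.79 and 2.77 CPM to 8.22, 7.78 and 9.27 CPM.

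Of 26 TGF-beta, YAP and plasminogen activator genes, 4 were more positive (INHBA, THBS1, CCN1 and SERPINE2) and 5 more negative (ANKRD1, PLAT, SMAD7, AXL and PLAU), against 8 and 9 with HEK-293T siHNRNPH1 replicate 1 left out. The shares over all genes were 8.13% and 10.8%, and 22.7% and 26.4% without that library. INHBA, the activin A subunit, rose in HT-1080 from 38.4, 31.2 and 37.8 CPM to 235.5, 226.0 and 231.9 CPM and stayed at or below 0.413 CPM in HEK-293T (interaction 3.20, edgeR BH-adjusted p = 1.01e-04). THBS1, a matrix glycoprotein that activates latent TGF-beta, rose in HT-1080 from 186.5, 157.0 and 185.7 CPM to 826.2, 791.0 and 792.0 CPM (interaction 1.79). PLAT, the tissue plasminogen activator, rose in HEK-293T from 42.5, 43.6 and 42.6 CPM to 65.2, 64.9 and 61.8 CPM and fell in HT-1080 from 319.9, 311.9 and 314.7 CPM to 244.1, 229.8 and 243.7 CPM (interaction -1.09, edgeR BH-adjusted p = 1.36e-04). SMAD7, an inhibitor of TGF-beta receptors, and ANKRD1, a YAP target, were also called in opposite directions, with interactions of -0.76 and -1.74.

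In the matrix list of 33 genes, 5 were more positive (8.13% of all genes) and 3 more negative (10.8%). With HEK-293T siHNRNPH1 replicate 1 left out, 11 went each way, against 22.7% more positive and 26.4% more negative over all genes. FN1, fibronectin, rose in HT-1080 from 1077.7, 844.7 and 1087.8 CPM to 3006.7, 2934.3 and 3080.4 CPM, and in HEK-293T it was at 72.8, 73.1 and 71.0 CPM and then 25.9, 65.7 and 64.5 CPM. The low value there was replicate 1, and the interaction was 1.97 with it and 1.67 without it (edgeR BH-adjusted p = 0.00306 and 5.88e-09). LAMA4, a laminin chain, had an interaction of 1.32, COL5A2 one of 2.59, COL5A1 one of 0.68 and P4HA2, a collagen prolyl hydroxylase, one of 0.46. COL6A1, COL6A2 and LAMA5 were the more negative members, and between 0 and 4 members were called in that direction when a library other than HEK-293T siHNRNPH1 replicate 1 was left out. MMP14, a membrane-bound collagenase, fell in HEK-293T from 2.91, 2.84 and 2.45 CPM to 2.08, 1.5 and 1.26 CPM and rose in HT-1080 from 1528.2, 1505.7 and 1495.8 CPM to 2319.2, 2314.1 and 2289.1 CPM (interaction 1.24). Of 27 actomyosin genes, 2 were more positive, TPM4 and TAGLN, and 7 more negative (3 and 14 without that library). TPM4, a tropomyosin, rose in HT-1080 from 190.1, 195.7 and 189.9 CPM to 576.8, 595.0 and 566.7 CPM and stayed between 169.5 and 188.4 CPM in HEK-293T (interaction 1.42), while TPM3 had an interaction of -0.70.

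Among 46 splicing regulators, 29 fell in HT-1080 (14.5% of all genes) and 7 in HEK-293T (8.56%), or 37 and 21 without HEK-293T siHNRNPH1 replicate 1. The interaction was more negative for 12 (10.8%) and more positive for 4 (8.13%), with a median of -0.29. Leaving out HEK-293T siHNRNPH1 replicate 1 made it more negative for 34 (26.4%) and more positive for 5 (22.7%), with a median of -0.31. HNRNPF, the close relative that binds the same G-runs, was at 327.8, 329.0 and 323.7 CPM and then 265.6, 321.9 and 316.4 CPM in HEK-293T, and fell in HT-1080 from 291.5, 293.1 and 287.3 CPM to 172.2, 175.1 and 165.0 CPM (interaction -0.76, edgeR BH-adjusted p = 7.19e-04). HNRNPH2 went the other way: it fell in both lines, from 204.7 to 56.8 CPM in HEK-293T and from 112.6 to 63.1 CPM in HT-1080 (interaction 0.92, edgeR BH-adjusted p = 0.00743). HNRNPH3 rose in both, and its interaction of -0.28 was not called. HNRNPH1, HNRNPH2 and HNRNPF are similar in sequence, so reads could be split between them. CIRBP, a cold-inducible RNA-binding protein, fell in HEK-293T from 115.5 to 37.9 CPM and averaged 89.0 and 76.9 CPM in HT-1080 (interaction 1.27). RBM3, another such protein, fell in both lines, by 2.63 and 2.21. SRSF7, an SR protein, had an interaction of -0.92.

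In the nonsense-mediated decay list 7 of 17 genes were called (19.0% of all genes), MAGOHB, UPF3B, DHX34, SMG9 and MAGOH more negative, NBAS and SMG6 more positive. With HEK-293T siHNRNPH1 replicate 1 left out 11 were more negative (26.4% of all genes) and 3 more positive (22.7%). SMG6 lost its call in 9 of the 12 leave-outs (edgeR BH-adjusted p up to 0.0779). MAGOHB, a core subunit of the exon junction complex, was at 23.4, 24.5 and 24.6 CPM and then 29.3, 26.1 and 26.7 CPM in HEK-293T and fell in HT-1080 from 24.4, 26.2 and 24.3 CPM to 10.1, 12.4 and 12 CPM (interaction -1.41, edgeR BH-adjusted p = 2.00e-04). NBAS fell in HEK-293T from 53.1, 55.9 and 55.3 CPM to 17.3, 26.0 and 27.1 CPM (interaction 0.95). In the unfolded protein and ATF4 list 6 of 31 genes were more negative (10.8% of all genes tested), ASNS, PSAT1, PHGDH, MTHFD2, SLC7A11 and ATF5, while STC2 and DDIT4 were more positive. ASNS, the asparagine synthetase, fell in HT-1080 from 27, 29.4 and 25.4 CPM to 9.69, 9.89 and 10.4 CPM (interaction -1.35). That count of 6 became 19 without HEK-293T siHNRNPH1 replicate 1 (26.4% of all).

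Some heat-shock genes rose in HEK-293T. Of 24 chaperone genes, 5 rose there (12.8% of all genes), 8 fell in HT-1080 (14.5%), and the interaction was more negative for 7 (10.8%). Without HEK-293T siHNRNPH1 replicate 1 it was more negative for 18 (26.4%). In HEK-293T 7 of the 24 then rose, near the share over all genes (30.6%), and 4 fell (24.6%). HSPA1B, an inducible HSP70, went from 822.9, 821.3 and 713.0 CPM to 2476.4, 2096.5 and 1764.3 CPM in HEK-293T and was at 59.5, 69.9 and 65.3 CPM and then 72.8, 75.6 and 75.4 CPM in HT-1080 (interaction -1.35, edgeR BH-adjusted p = 0.00144). HSPA1A, nearly identical to HSPA1B, had an interaction of -1.13, and counts of the pair may be split. BAG3, a co-chaperone, was called in opposite directions, from 37.9, 37.5 and 36.8 CPM to 49.7, 49.1 and 43.3 CPM in HEK-293T and from 175.2, 170.8 and 179.2 CPM to 149.9, 152.3 and 149.7 CPM in HT-1080.

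Of 18 replication-dependent histone genes tested (of 35 listed), 9 rose in HEK-293T (12.8% of all genes) and 9 in HT-1080 (14.8%). A called interaction was found for 3 (19.0%). H2BC21 was more positive in HT-1080, where it went from 4.83, 4.88 and 4.72 CPM to 19.6, 19.8 and 20.3 CPM, beside 1.12 CPM in each HEK-293T control and 2.19, 1.92 and 2.13 CPM with siHNRNPH1. H2BC4 was more positive too (interaction 1.12), and H2BC12 more negative (-1.02), a call lost in 5 of the 12 leave-outs (edgeR BH-adjusted p up to 0.0623). With HEK-293T siHNRNPH1 replicate 1 left out, 6 histone genes were more positive (22.7% of all genes) and 1 more negative (26.4%). In 28 lysosome and autophagy genes, 4 were more positive (HEXA, WIPI1 and GABARAPL1 among them) and 3 more negative, against 8.13% and 10.8% of all genes. Without HEK-293T siHNRNPH1 replicate 1, 16 were more positive (22.7% of all genes). HEXA, a lysosomal hexosaminidase subunit, fell in HEK-293T from 93.1, 93.5 and 96.1 CPM to 49.9, 47.0 and 47.3 CPM and was at 88.2, 92.4 and 86.1 CPM and then 85.3, 85.3 and 85.8 CPM in HT-1080 (interaction 0.80). Among 16 Wnt and Notch targets, LEF1, a Wnt transcription factor, was more negative (-2.19), and NOTCH3 and RNF43 more positive (2.37 and 0.98), with 3 and 4 called without that library. The shares over all genes were 10.8% and 8.13% with 12 libraries, and 26.4% and 22.7% without that library.

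For several housekeeping lists the interaction moved with HEK-293T siHNRNPH1 replicate 1. The 78 cytosolic ribosomal protein genes had a median interaction of -0.43 with 12 libraries and 0.10 without it, and in edgeR 0 were called with 12 libraries, with 1 at an unadjusted p under 0.05 and 1 in DESeq2. Without that library 9 were more positive and 1 more negative, below the shares of 22.7% and 26.4% over all genes. In HEK-293T 29 then fell (24.6% of all genes). On the log2(CPM + 1) scale their median was 0.93 in that library, and -0.13 and -0.15 in the other HEK-293T siHNRNPH1 libraries. It was 0.21 in HT-1080 siNegative replicate 2, beside -0.11 and -0.10 in the other controls of that line. Nuclear complex I genes, which encode the first respiratory enzyme, gave 0.80, -0.05 and -0.09 in the HEK-293T siHNRNPH1 libraries, and a median interaction of -0.47 that became -0.02. Proteasome genes gave 0.50, -0.13 and -0.11, with -0.47 becoming -0.13. Of 37 complex I genes, 1 was more positive (8.13% of all genes) and NDUFA9 more negative (10.8%). The call of NDUFA9 was lost in 9 of the 12 leave-outs (edgeR BH-adjusted p up to 0.0846). Without the library 9 were more positive (22.7% of all genes) and 6 more negative (26.4%). What set the library apart was not tested.

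**Figure D3:**
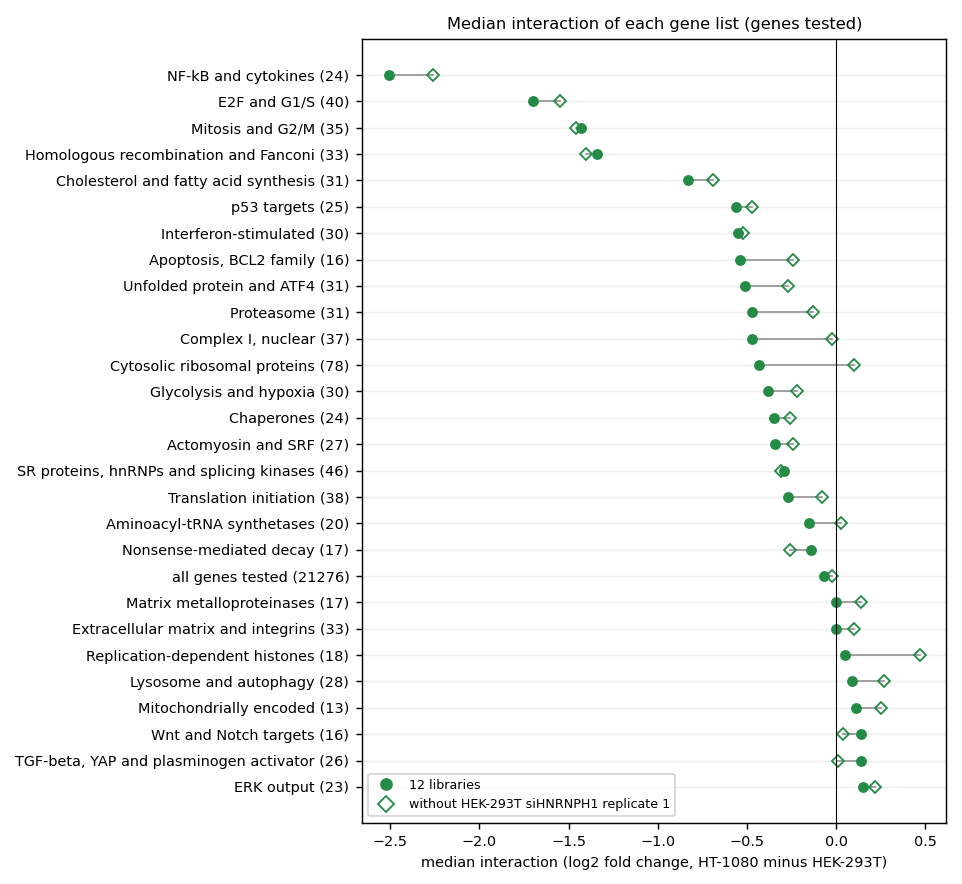
Median interaction of each gene list with 12 libraries and without HEK-293T siHNRNPH1 replicate 1. The E2F (-1.70 and -1.55), mitosis (-1.43 and -1.46) and NF-kB (-2.51 and -2.26) lists stay below 0, while ribosomal proteins move from -0.43 to 0.10.

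Genes with the smallest interaction p outside these lists included receptors, secreted peptides and membrane enzymes. UCN2, a urocortin peptide, rose in HEK-293T from 0.405, 0.542 and 0.446 CPM to 4.87, 4.21 and 4.24 CPM and fell in HT-1080 from 26.0, 25.4 and 26.6 CPM to 20.9, 21.3 and 19.2 CPM (log2 fold changes 3.29 and -0.42, interaction -3.71, edgeR BH-adjusted p = 4.05e-06). PTX3, a secreted pattern recognition protein, fell in HT-1080 from 121.5, 129.9 and 117.3 CPM to 13.5, 14.8 and 16.4 CPM and stayed below 1 CPM in HEK-293T (interaction -3.41). FAM83D, a spindle protein, had an interaction of -1.93. UCN2 overlaps PFKFB4, and their reads cannot be told apart without strand. PFKFB4 itself rose in HEK-293T, from a mean of 8.74 to 18.9 CPM (log2 fold change 1.16, interaction -0.88). In HT-1080 PFKFB4 averaged 120.8 and then 154.8 CPM, a change of 0.28 that was not called with 12 libraries. On the positive side, MC1R, the melanocortin receptor, fell in HEK-293T from 13, 12.9 and 14.3 CPM to 8.57, 9.35 and 9.31 CPM and rose in HT-1080 from 5.27, 5.45 and 5.48 CPM to 18.7, 19.5 and 21.7 CPM (interaction 2.34, edgeR BH-adjusted p = 4.05e-06). C1RL, a complement protease-like protein, fell from 1.45, 1.64 and 1.21 CPM to 0.371, 0.340 and 0.371 CPM and rose from 24.4, 23.4 and 25.9 CPM to 47.3, 47.1 and 48.5 CPM (interaction 2.83). Both genes therefore moved in opposite directions without overlap of the groups.

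ZDHHC11, a palmitoyltransferase, fell in HEK-293T from 20.4, 18.0 and 19.2 CPM to 3.39, 3.93 and 3.68 CPM, while its HT-1080 change of 0.28 did not pass the test with 12 libraries (edgeR BH-adjusted p = 0.0680, interaction 2.64). It did without HEK-293T siHNRNPH1 replicate 1 (edgeR BH-adjusted p = 0.0142), where ZDHHC11 was called in opposite directions. It has a near-identical neighbour, ZDHHC11B, so its count is uncertain. PERP, a desmosome protein, rose in HT-1080 from 57.2, 55.2 and 56.5 CPM to 177.2, 176.5 and 176.7 CPM and overlapped between the HEK-293T groups (interaction 1.63). MAPK4, an atypical kinase, rose in HT-1080 from 0.952, 1.13 and 1.42 CPM to 11.7, 10.7 and 12.5 CPM (interaction 3.02). MOCOS, C22orf46 and CLSTN3 fell in HEK-293T and rose in HT-1080, with interactions of 1.94, 1.97 and 1.59 (edgeR BH-adjusted p of 7.71e-06 or less for each).

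The 464 genes called in opposite directions held 205 that fell in HEK-293T and rose in HT-1080 (0.964%) and 259 that rose in HEK-293T and fell in HT-1080 (1.22%). Of them, 19 belonged to any of the 27 lists, which hold 785 tested genes. That share is near the 2.18% of all 21276 genes tested, so the lists held opposite genes about as often as all genes. KLF9, a Krüppel-like repressor induced by glucocorticoids, was at 54.3, 54.4 and 54.5 CPM and then 14.8, 27.4 and 27.5 CPM in HEK-293T, and at 56.0, 54.7 and 60.2 CPM and then 166.8, 169.4 and 173.1 CPM in HT-1080. Similar control levels thus went apart in the lines (log2 fold changes -1.21 and 1.5, interaction 2.71, edgeR BH-adjusted p = 3.58e-05). TLCD2, a membrane lipid regulator, fell from 15.1, 14.7 and 14.5 CPM to 2.88, 4.52 and 4.94 CPM and rose from 0.549, 0.598 and 0.363 CPM to 1.92, 1.81 and 1.65 CPM (interaction 3.58). SEMA3B, a secreted semaphorin, fell from 3.34, 2.60 and 3.88 CPM to 1.82, 1.29 and 1.05 CPM and rose from 7.43, 8.60 and 7.14 CPM to 23.9, 23.9 and 25.5 CPM (interaction 2.77). In each of these genes the groups were apart in both lines.

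Several others of this orientation were noncoding. LINC00173 fell from 1.82, 2.5 and 1.88 CPM to 0.928, 0.803 and 0.854 CPM and rose from 1.28, 1.10 and 1.65 CPM to 4.49, 4.90 and 4.85 CPM (interaction 2.96, edgeR BH-adjusted p = 5.18e-05). EOLA2-DT had an interaction of 2.73, POC1B-AS1 of 2.42 and MBNL1-AS1 of 2.27. The last 2 lie antisense to POC1B and MBNL1, and since strandedness is not given in the sources used here, reads of the partners cannot be told apart. ACCS had an interaction of 2.13.

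Of the genes that rose in HEK-293T and fell in HT-1080, APLN, which encodes the peptide apelin, was at 2.48, 2.63 and 2.37 CPM and then 8.07, 9.22 and 8.71 CPM in HEK-293T. In HT-1080 it was at 6.04, 5.25 and 4.89 CPM and then 1.40, 1.44 and 1.37 CPM. The line with the lower control level therefore ended higher (log2 fold changes 1.83 and -2.02, interaction -3.85, edgeR BH-adjusted p = 1.73e-06). SLC43A3, a purine base transporter, rose from 0.108, 0.198 and 0.116 CPM to 2.11, 1.43 and 0.956 CPM and fell from 97.7, 93.0 and 95.2 CPM to 29.5, 29.0 and 30.6 CPM (interaction -5.21). GABBR2, a subunit of the GABA-B receptor, rose from 3.99, 3.51 and 3.50 CPM to 5.56, 9.2 and 9.06 CPM and fell from 3.81, 3.39 and 3.90 CPM to 1.51, 1.38 and 1.16 CPM (interaction -2.67). HRH2, a histamine receptor, stayed below 1 CPM in HEK-293T and had an interaction of -2.80.

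H2AX, the histone variant marked at DNA breaks, was at 36.8, 34.6 and 32.9 CPM and then 114.1, 51.8 and 43.7 CPM in HEK-293T, and fell in HT-1080 from 140.6, 165.4 and 138.0 CPM to 60.1, 64.4 and 60.4 CPM. Its HEK-293T log2 fold change was 1.08 with HEK-293T siHNRNPH1 replicate 1 and 0.44 without it, both called (edgeR BH-adjusted p = 0.0365 and 4.83e-04). HSPA6, another inducible HSP70 with a near-copy, HSPA7, had an interaction of -3.04. FSBP, which overlaps RAD54B, had one of -2.90, and the value of replicate 1 in HEK-293T, 5.96 CPM, lay near the controls while the others were at 17.3 and 18.5 CPM.

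**Figure D4:**
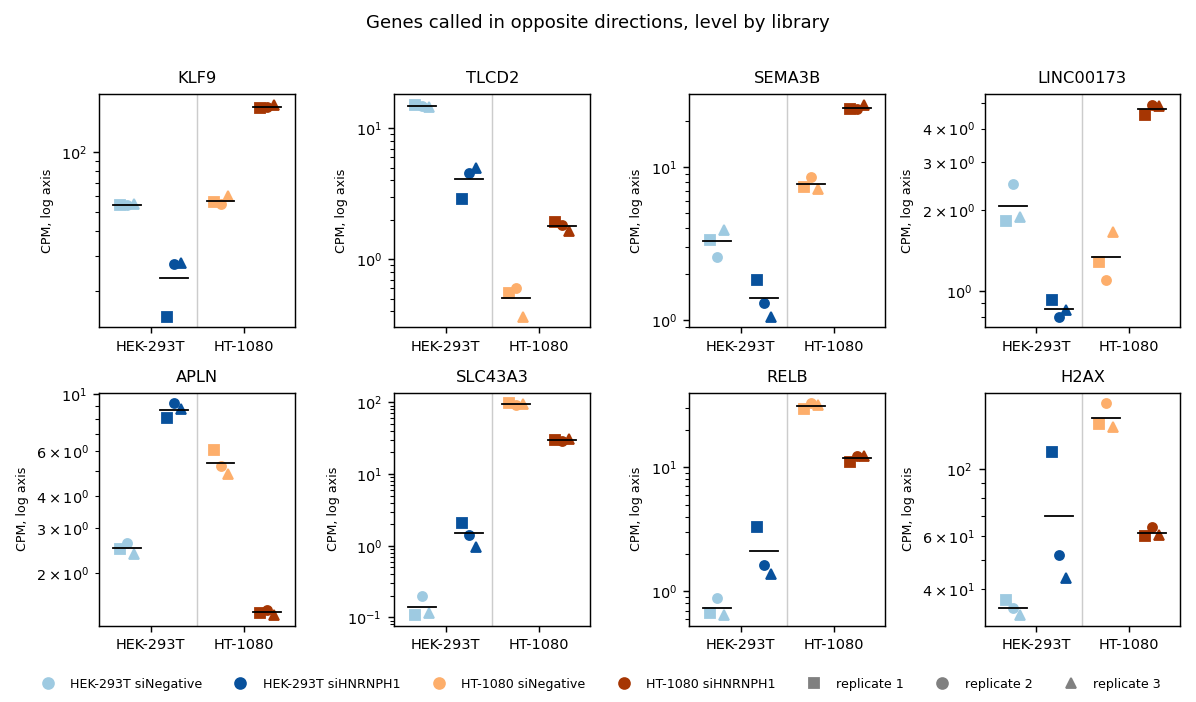
CPM on a log axis for 8 genes called in opposite directions, 1 marker per library (square, circle and triangle for replicates 1, 2 and 3) with a black bar at the mean of each group. KLF9, TLCD2, SEMA3B and LINC00173 fall in HEK-293T and rise in HT-1080, and APLN, SLC43A3, RELB and H2AX do the reverse.

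Transcript shares, the percent of a gene's expected count given to each of its transcripts, gave fewer calls than gene levels. RSEM splits reads shared by overlapping transcripts by estimate, so a share is not a direct count. Of 35178 transcripts of 9617 genes, 389 (1.11%) had an interaction below an adjusted p of 0.05 in limma, in 312 genes, 203 more positive in HT-1080 (0.577%) and 186 more negative (0.529%). The median absolute difference was 16.0 percentage points, and 136 were 20 points or more. Unlike for gene levels, more of the calls came from changes called in HEK-293T alone (198) than in HT-1080 alone (130). Another 38 moved the same way in both lines, 35 of them further in HEK-293T. The HEK-293T libraries were deeper, and shares were not tested at matched depth. Of the 312 genes, 73 also had a called interaction of the gene level, against 2418 of the 9617.

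Without HEK-293T siHNRNPH1 replicate 1, 1388 of 34875 transcripts were called (3.98%), among them 386 of the 389. Leaving out any other library gave 124 to 278 calls, the lowest 3 without a HEK-293T siNegative library. The exact permutation test over 400 labelings within lines, two-sided, cannot give less than 0.005. It gave 0.005 for 11 of the 16 transcripts named here, and 0.0150 to 0.0950 for INPP5E, NCSTN, UNG, PPP1R37 and PCBP4. The 16 were picked by these same shares, so low values were likely beforehand and add no support. Shuffling within each line also takes the siRNA to have no effect in either line, which is not the same as equal effects. By limma diffSplice, which tests a transcript's log change against that of its gene, 5 of the 16 were called (INPP5E, TNS2, CBFA2T2, DNHD1 and ZWINT). The other 11 were not, with limma diffSplice adjusted p of 0.0531 for GPATCH2, 0.130 for ABCC5, 0.132 for SMAD2, 0.211 for PPP1R37, 0.244 for NCSTN, 0.429 for TBC1D10B, 0.453 for UNG and EXOC5, 0.485 for SENP6, 0.630 for PCBP4 and 0.638 for NUP58.

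In NCSTN, which encodes the nicastrin subunit of gamma-secretase, ENST00000294785.10 made up 60.3%, 62.4% and 65.8% of the HEK-293T control counts and 12.7%, 9.70% and 10.2% with siHNRNPH1. In HT-1080 it was at 78.9%, 76.7% and 75.0% and then 74.7%, 75.3% and 68.4%. The main transcript was thus displaced in HEK-293T and kept most of the count in HT-1080 (47.9 points, limma BH-adjusted p = 4.53e-04), a call not made by diffSplice. No single tested partner took its share: the largest of them with siHNRNPH1, ENST00000491390.2, rose from 2.48% ± 0.180 to 12% ± 0.807 (SD, n = 3 each). The gene's level fell too in HEK-293T (log2 fold change -1.44, against 0.17 in HT-1080). In INPP5E, an inositol phosphatase of cilia, ENST00000371712.4 went from 56.1%, 60.9% and 67.8% to 18.9%, 10.9% and 14.5% in HEK-293T and from 78.3%, 60.0% and 61.0% to 76.3%, 77.6% and 75.6% in HT-1080. It changed in HEK-293T, where ENST00000676019.1 rose from 18.2% ± 5.92 to 64.2% ± 6.21 (SD, n = 3 each).

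UNG, the uracil DNA glycosylase, switched in HT-1080. ENST00000336865.6 was at 4.58%, 8.55% and 9.85% in the HT-1080 controls and at 49.8%, 50.5% and 62.1% with siHNRNPH1, and it did not exceed 1.11% in HEK-293T. The partner ENST00000242576.7 fell in HT-1080, from 81.5% ± 2.63 to 35.7% ± 4.91, and stayed at 95% ± 0.260 and 95.7% ± 1.48 in HEK-293T (SD, n = 3 each). The interaction of 46.9 points was called (limma BH-adjusted p = 0.00264), though not on the log-odds scale (limma BH-adjusted p = 0.570). In PPP1R37, a phosphatase regulator, ENST00000221462.9 fell in HEK-293T from 76.1%, 76.2% and 78.0% to 39.2%, 34.9% and 36.1% while ENST00000422370.2 rose to 59.4% ± 5.75 (SD, n = 3), and in HT-1080 it was at 69.5%, 72.9% and 74.2% and then 71.2%, 78.2% and 79.9% (44.3 points). In DNHD1, a dynein heavy chain domain protein, ENST00000354685.7 rose in HEK-293T from 15.7%, 14.1% and 16.2% to 55.0%, 48.5% and 50.7%, with HT-1080 values of 21%, 20.6% and 21.8% and then 19.6%, 15.1% and 14.7% (-40.8 points).

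TNS2, tensin 2, had ENST00000314250.11 at 21.4%, 41.5% and 40.7% in the HEK-293T controls and at 0% in all 3 siHNRNPH1 libraries, and at 35.7%, 35.3% and 42.2% and then 58.6%, 52.1% and 57.7% in HT-1080 (52.9 points, limma BH-adjusted p = 0.00175). In CBFA2T2, ENST00000359606.3 differed by -42.6 points and was at 0% in the HT-1080 siHNRNPH1 libraries, and in PCBP4, an RNA-binding protein, ENST00000322099.11 by 40.8 points. The calls of CBFA2T2 and PCBP4 were lost in 7 and 2 of the 12 leave-outs, with limma BH-adjusted p up to 0.0653 and 0.0569. PCBP4 was also not called on the log-odds scale (limma BH-adjusted p = 0.595).

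Opposite directions were called for 18 transcripts of 17 genes (0.0512%), 10 that fell in HEK-293T and rose in HT-1080 (0.0284%) and 8 the reverse (0.0227%). Without HEK-293T siHNRNPH1 replicate 1 there were 86 (0.247%), including 17 of the 18, and when another library was left out there were 5 to 15. In ZWINT, a kinetochore protein, ENST00000373944.8 fell in HEK-293T from 33.5%, 36.9% and 34.2% to 24.6%, 18.6% and 16.0% and rose in HT-1080 from 31.1%, 27.7% and 27.8% to 45.9%, 45.4% and 42.2% (30.8 points, limma BH-adjusted p = 0.00510). Its partners differed by line: ENST00000395405.5 rose from 29.7% ± 1.19 to 46.9% ± 1.42 in HEK-293T, and in HT-1080 ENST00000494312.5 fell from 36.2% ± 2.65 to 16.5% ± 0.444 (SD, n = 3 each). The ZWINT gene level fell by 1.12 in HT-1080, so a higher share there came with less RNA of the gene.

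GPATCH2, a G-patch protein, held a pair of transcripts that exchanged shares in both lines in opposite directions. ENST00000366934.3 went from 48.7%, 50% and 48.2% to 69.0%, 75.5% and 76.3% in HEK-293T and from 50.4%, 52.2% and 55.0% to 38.5%, 41.4% and 39.2% in HT-1080 (-37.4 points, limma BH-adjusted p = 0.00231). ENST00000366935.8 mirrored it (36.9 points). In TBC1D10B, a Rab GTPase-activating protein, ENST00000409939.8 went from 79.5%, 78.9% and 78.2% to 64.3%, 69.6% and 65.8% in HEK-293T and from 68.5%, 70.1% and 69.9% to 83.7%, 85.9% and 82.1% in HT-1080 (26.6 points). NUP58, a nucleoporin, had ENST00000463407.6 at 16.1%, 15.2% and 15.6% and then 20.5%, 24.3% and 25.6% in HEK-293T, and at 50.6%, 51.1% and 51.8% and then 31.3%, 33.3% and 31.3% in HT-1080 (-27.0 points). In all 3 genes the groups were apart in both lines, though diffSplice called none of the 3.

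EXOC5, an exocyst subunit, had ENST00000621441.5 at 21.7%, 26.1% and 27.7% and then 37.3%, 37.5% and 34.6% in HEK-293T and at 49.5%, 53.7% and 58.5% and then 34.5%, 33.1% and 37.6% in HT-1080 (-30.2 points, not called by diffSplice). SMAD2, a mediator of TGF-beta signals, SENP6, a SUMO protease, and ABCC5, a drug and nucleotide exporter, had differences of -22.1, -17.1 and 18.6 points. Their calls were lost in 3, 8 and 9 of the 12 leave-outs, with limma BH-adjusted p up to 0.0569, 0.0827 and 0.0940. ABCC5 also lost its call on the log-odds scale (limma BH-adjusted p = 0.0872). The other genes with such a transcript were KIF1B, POLD2, NKRF, PHKA1, SEZ6L2, QKI, TMEM179B, ZBTB10 and TAF6. Among these, ENST00000350527.7 of SEZ6L2 moved by -22.9 points in HEK-293T and 4.34 in HT-1080, and ENST00000453779.6 of QKI, itself a splicing regulator, by 9.09 and -4.00.

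**Figure D5:**
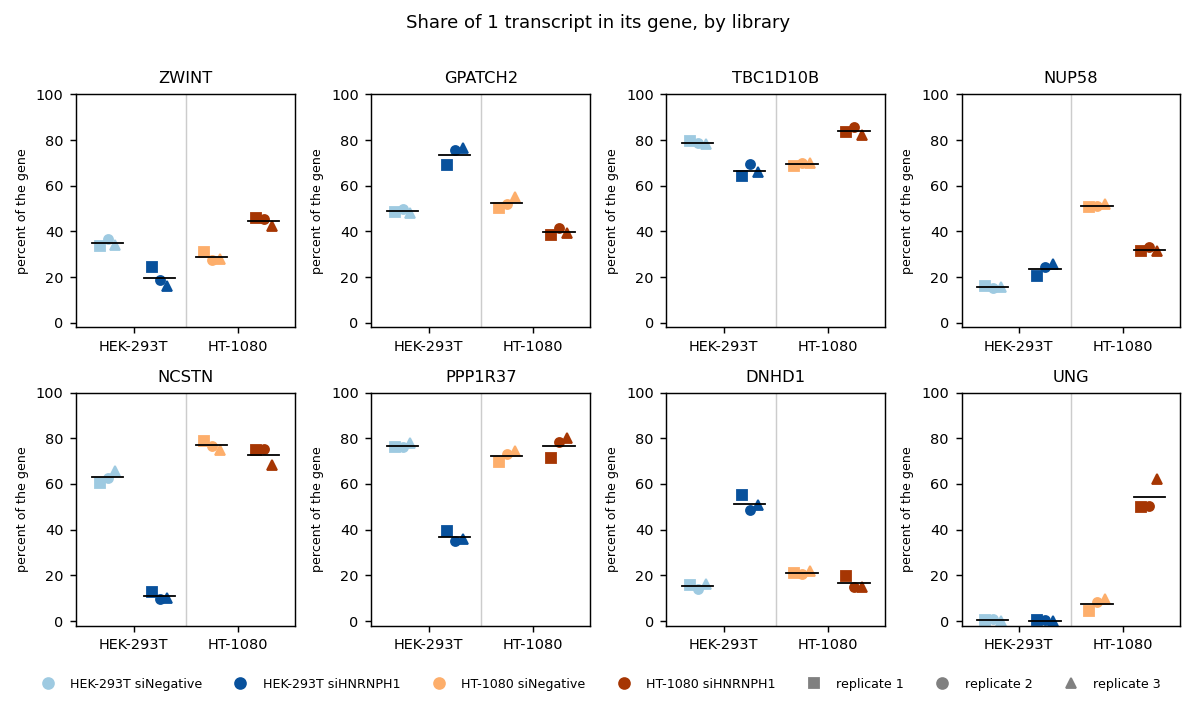
Percent of the gene's expected count held by 1 transcript of each of 8 genes, 1 marker per library with a black bar at the mean of each group. ZWINT, GPATCH2, TBC1D10B and NUP58 move in opposite directions in the lines, NCSTN, PPP1R37 and DNHD1 move in HEK-293T, and UNG moves in HT-1080.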

How the data were processed

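Short-read RNA-seq of 12 libraries gave expected counts per transcript, which the authors deposited; RSEM and GRCh38.p13 are named per the submitters' processing notes, and RSEM's version, the aligner, the annotation and strandedness are not given in the sources used here. All columns matched a sample, with 0 left unmatched, and the 4 full-length cDNA samples were not used here. The expected counts of a gene's transcripts were added and rounded. Genes kept by filterByExpr were scaled by TMM and tested by edgeR 4.0.16 (glmQLFit robust, glmQLFTest) in R 4.3.3, with 1 coefficient per group, all 12 libraries and Benjamini-Hochberg (BH) adjustment at 0.05 over all genes. Opposite means that the interaction and both lines' own tests were called, with lines of unlike sign. CPM in the text use library totals.

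Transcript shares were tested by limma 3.58.1 on the arcsine square root, for genes whose mean count reached 50 in every group and transcripts of at least 5% in a group and at most 95% in a group. Differences are in percentage points. Single transcripts were also tested by an exact permutation of libraries within lines. The scripts were tested on simulated data. Tables were handled in Python 3.11.15 with pandas 2.3.3 and numpy 2.4.6.

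Genes named are HNRNPH1, the 8 with the smallest interaction p per direction and the 8 with the largest smaller change per opposite orientation, called with and without HEK-293T siHNRNPH1 replicate 1 and with a mean count of 50 in a group of each line, and up to 4 per list. Transcripts named are the 8 with the largest difference and the 8 with the largest smaller opposite change, with a mean gene count of 200 for the first. Other genes named from a count were chosen after their values were seen. Results of some genes that this rule names are not reported here. Members and gene lists were chosen with earlier results of these data known. Alternatives were other scalings, filters, DESeq2 1.42.0, limma with sample weights, depth matching (genes only), a replicate block, other share scales and leaving out libraries. Depth was 107745652 to 121026191 counts per HEK-293T library and 27304374 to 32653151 per HT-1080 library, whose values carry more counting error.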

Additional observations from a re-analysis of the deposited data

Results flagged for a closer look

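The siRNA effect differed between the lines by the interaction test for 4036 genes and 389 transcript shares, and both lines were called in opposite directions for 464 genes and 18 transcripts. Among named genes with opposite directions, the interaction on the log2 scale was 3.58 for TLCD2, 2.96 for LINC00173, 2.77 for SEMA3B, 2.73 for EOLA2-DT, 2.71 for KLF9, 2.42 for POC1B-AS1, 2.27 for MBNL1-AS1 and 2.13 for ACCS. It was -5.21 for SLC43A3, -3.85 for APLN, -3.05 for RELB, -3.04 for HSPA6, -2.90 for FSBP, -2.80 for HRH2, -2.67 for GABBR2 and -2.42 for H2AX. In percentage points of the gene's count, the transcript difference was 30.8 for ZWINT, 26.6 for TBC1D10B and 18.6 for ABCC5. It was -37.4 for GPATCH2, -30.2 for EXOC5, -27.0 for NUP58, -22.1 for SMAD2 and -17.1 for SENP6.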

How the results depend on the processing

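The named genes and transcripts kept their direction under each alternative run, while counts of calls and some list medians moved. The 4036 genes with a called interaction became 10873 with limma voom sample weights, 2535 with a replicate block within each line, and 2776 to 9535 when 1 library was left out, the highest without HEK-293T siHNRNPH1 replicate 1. The 464 opposite genes became 262 without a low-count filter, 754 in DESeq2, 2716 with sample weights, 203 with the replicate block, and 258 to 2277 with 1 library left out. The 389 transcripts became 777 on untransformed percent, 197 in limma diffSplice, 1796 with sample weights and 124 to 1388 with 1 library left out. With the replicate block limma called 0 transcripts, with 4163 at an unadjusted p under 0.05, so that all 16 named transcripts lost their call. The 18 opposite transcripts became 36, 8, 108 and, with the block, 0, and 5 to 86 with 1 library left out. Leaving out HEK-293T siHNRNPH1 replicate 1 and HT-1080 siNegative replicate 2 together, chosen after seeing the data, gave 10421 genes, 2816 opposite genes, 1645 transcripts and 103 opposite transcripts. The interaction of HNRNPH1 was 0.04 to 0.31 and was not called in any of these. Replicate numbers are shared across groups. Same-numbered libraries correlated in their deviations at 0.117, 0.114 and 0.033 in HEK-293T and 0.027, 0.113 and 0.061 in HT-1080. Libraries of unlike number gave -0.124 to 0.082. Whether same-numbered libraries were paired cannot be told from such small values, so the replicate block counts stand beside the main ones. HEK-293T siHNRNPH1 replicate 3 and HT-1080 siHNRNPH1 replicate 1 did not correlate best with their own number. Calls of named genes were kept in 2344 recomputed values and lost in 136, those of named transcripts kept in 260 and lost in 60. The cause of these moves was not tested. The lower depth of HT-1080 limits genes below 1 CPM there.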
